A study of Homo sapiens with 16 samples.

Results

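The 9 genes described here encode small-molecule methyltransferases, the enzyme that opens creatine synthesis, and the enzymes that make phosphatidylcholine: NNMT, PEMT, GAMT, GATM, HNMT, TPMT, PCYT1A, CHKA and CHPT1. They were chosen by symbol and were each matched to 1 of the 60676 Ensembl gene identifiers in the deposited count tables. Total RNA was profiled in 16 libraries of the human melanoma cell lines A101D, labelled as methionine dependent, and MeWo, labelled as methionine independent, with 8 libraries per line numbered 1 to 8. The labels describe growth in a medium with methionine and in a methionine-free medium with homocysteine, both with added cystine and dialyzed serum, and they give no library's medium. The lines carry no other stated treatment or engineered change, and each label stands for 1 cell line, so a difference between the lines cannot be told apart from any other difference between A101D and MeWo.

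Besides the lines, the libraries numbered 1 to 4 were compared with those numbered 5 to 8 within each line. This split came with the choice of the 9 genes, with results of these data known. The labels do not say what the numbers stand for or whether the libraries came from separate cultures, so the p-values measure only the spread between these libraries, which may be technical. No medium is assigned to either set here, and rose and fell refer to libraries 5 to 8 relative to libraries 1 to 4.

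S-adenosylmethionine, made from methionine, donates its methyl group to many small molecules as well as to DNA, RNA and proteins. NNMT methylates nicotinamide, HNMT inactivates histamine and TPMT methylates thiopurine drugs. GATM joins arginine and glycine to form guanidinoacetate, which GAMT methylates to creatine. Phosphatidylcholine, the main membrane phospholipid, is made by a pair of routes. In the CDP-choline route CHKA phosphorylates choline, PCYT1A forms CDP-choline in the step that usually limits the rate, and CHPT1 transfers phosphocholine to diacylglycerol. PEMT instead adds methyl groups to phosphatidylethanolamine and is best known from liver. GATM, PCYT1A, CHKA and CHPT1 transfer no methyl group and are included as neighbours in the same pathways.

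PEMT and TPMT were lower in A101D libraries 5 to 8 than in libraries 1 to 4 by more than the spread between libraries. Among the genes with an available sequence, these falls were the largest. For both genes, the stretch of 250 bases before the annotated start is shown. Both are RefSeq sequences of GRCh38.p14, printed 5′ to 3′ on the minus strand of the genome, and capitals mark the GC box GGGCGG or its reverse complement CCGCCC.
PEMT, chr17:17591709-17591958: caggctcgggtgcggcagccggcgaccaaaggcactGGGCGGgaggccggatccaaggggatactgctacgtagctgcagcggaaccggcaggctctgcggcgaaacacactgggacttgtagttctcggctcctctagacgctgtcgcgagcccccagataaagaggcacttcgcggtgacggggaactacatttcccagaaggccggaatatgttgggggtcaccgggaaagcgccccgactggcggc
TPMT, chr6:18155170-18155419: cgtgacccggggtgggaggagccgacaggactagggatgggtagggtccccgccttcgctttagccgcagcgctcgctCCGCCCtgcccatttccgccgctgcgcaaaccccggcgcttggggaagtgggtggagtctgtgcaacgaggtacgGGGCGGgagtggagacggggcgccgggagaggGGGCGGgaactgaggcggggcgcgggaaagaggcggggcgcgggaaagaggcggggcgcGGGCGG
The PEMT window held 1 GC box and 23 CpG dinucleotides with a GC content of 64.4%, and the TPMT window held 4 GC boxes and 31 CpG dinucleotides with a GC content of 73.6%. Over 34943 windows of this length in the same table the median was 11 CpG dinucleotides, and 42.6% of windows held a GC box. PEMT has further annotated starts, whose windows held 4 and 15 CpG dinucleotides, and a further TPMT start has a window (chr6:18155078-18155327) with 37 CpG dinucleotides, a GC content of 78.4% and 6 GC boxes. The TPMT windows overlap, so some of their GC boxes and CpG dinucleotides may be the same. The read counts were summed over whole genes and do not separate the starts. The table held windows for 6 of the 9 genes (PEMT, GATM, HNMT, TPMT, PCYT1A and CHPT1) and none for NNMT, GAMT and CHKA. The HNMT window stood at the other end of the range, with 2 CpG dinucleotides, a GC content of 39.6% and no GC box. On either strand, CCAAT was found in 1 member window (GATM; 32.0% of all windows) and CACGTG in 1 (the third PEMT start; 6.32% of all windows), while TGACGTCA was in none (1.63% of all windows). These are matches of letters and were not tested for binding.

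Total counts ran from 28910881 to 38961862 per library. Genes with at least 1 count numbered 31281 to 33107 in A101D libraries 1 to 4, 34020 to 34607 in A101D libraries 5 to 8 and 30066 to 34471 in MeWo, where library 2 had the highest number. Melanocyte lineage markers reached a mean of 1 CPM (counts scaled to library size, per 1e+06) for 7 of 8 in A101D, all but TYRP1. In MeWo 8 of 8 did. Their summed level was 2458 to 3511 CPM in the first line and 10011 to 11660 CPM in the second. The second sum was mostly PMEL (6096 to 6965 CPM) and TYRP1 (2014 to 2576 CPM). Of the 8 genes, 6 were higher and 2 lower in MeWo. The lower ones were DCT (1225 to 1920 CPM for A101D, 413 to 551 CPM for MeWo) and S100B (494 to 716 CPM, then 119 to 139 CPM). Of 4 leukocyte markers, none reached 1 CPM in A101D and 1 did in MeWo. Of 5 fibroblast markers, 3 did in each line, and the summed level of the 5 ran from 573 to 1061 CPM for A101D, nearly all COL1A2 (mean 783 CPM), and from 74.1 to 84.9 CPM for MeWo, nearly all LUM (mean 73.9 CPM), with 3 of the 5 higher and 2 lower in MeWo. Endothelial markers reached 1 CPM for 1 of 3 genes in each line, and epithelial markers for 1 of 3 in A101D and 0 of 3 in MeWo. In such bulk libraries, fewer cells that express a gene and less RNA per cell cannot be told apart.

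All 9 genes passed the low-count filter, and every one differed between the lines. At the scaling used here, the 8 values of A101D and the 8 of MeWo did not overlap for these genes. Overlap under other scalings was not computed. How many of all genes tested were also free of overlap was not computed either. The lack of overlap therefore says nothing particular about the 9. PEMT, GATM, HNMT, CHKA and CHPT1 were higher in MeWo, while NNMT, GAMT, TPMT and PCYT1A were higher in A101D. Differences between lines were the rule, since 86.7% of the 21569 genes tested passed an adjusted p of 0.05 (limma with voom weights, Benjamini-Hochberg). The count of 9 of 9 is close to that background and says nothing particular about these genes. The median absolute difference over all genes was 0.757 on the log2 scale, and 8 of the 9 genes exceeded it, all but CHPT1. The median signed difference was 0.37 for the 9 genes and -0.05 for all genes.

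**Figure D1:**
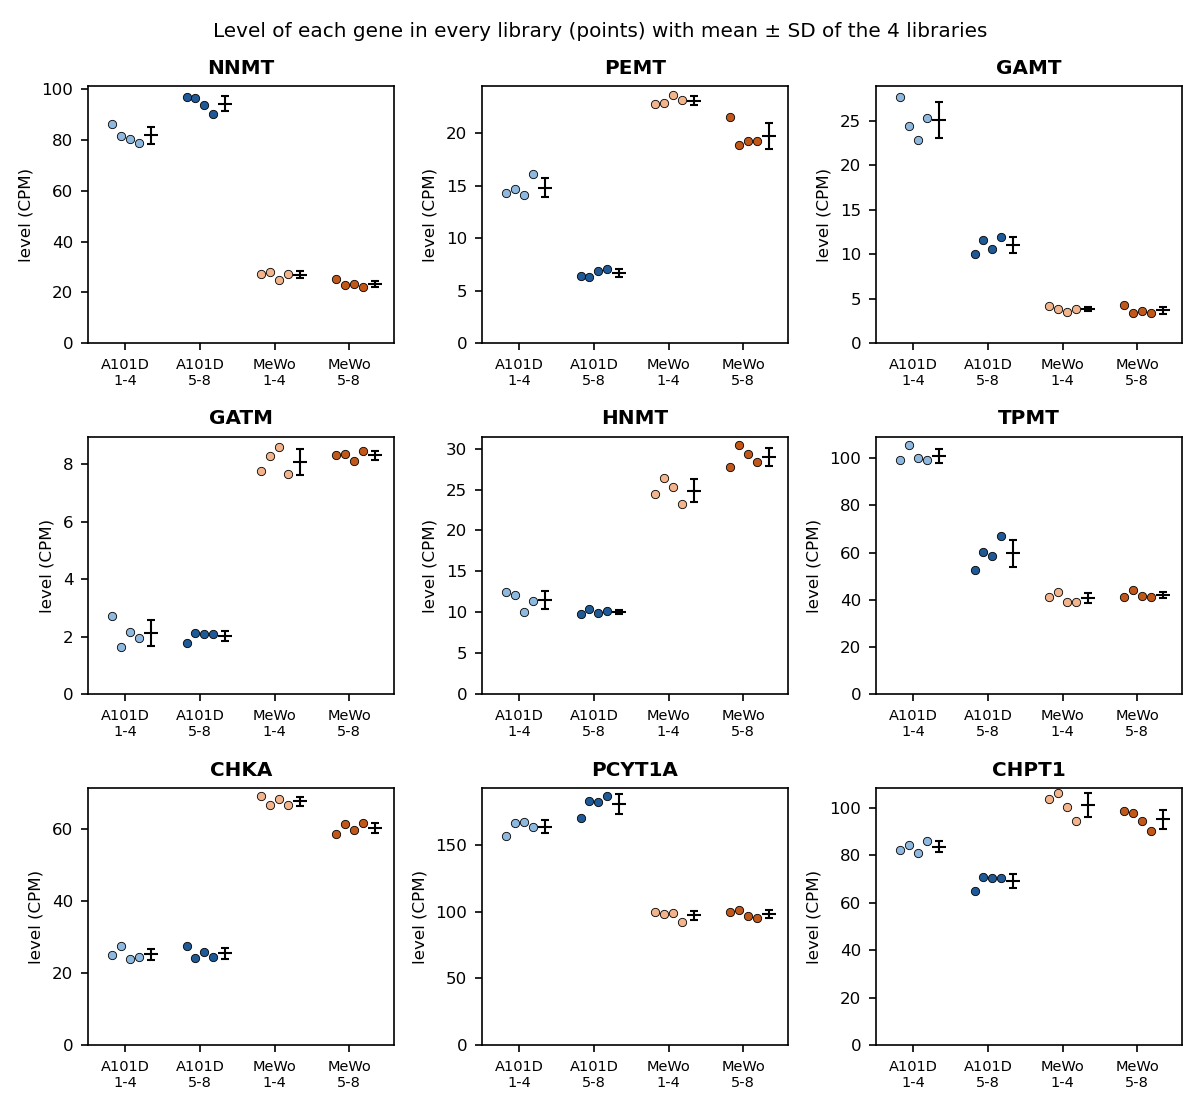
Level of each of the 9 genes in CPM (vertical axis, linear from 0) in every library (points) of A101D and MeWo, libraries 1 to 4 and 5 to 8 (horizontal axis), with the mean and SD of each set of 4 beside the points. PEMT, GAMT and TPMT are lower in A101D libraries 5 to 8 than in 1 to 4, by 2.22, 2.28 and 1.70 times.

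NNMT, which uses a methyl group to turn nicotinamide into 1-methylnicotinamide, was the member with the third largest line difference. In A101D its level was 86.5, 81.6, 80.5 and 79.0 CPM in libraries 1 to 4 and 97.0, 96.7, 93.9 and 90.3 CPM in libraries 5 to 8. In MeWo it was 27.3, 28.1, 25 and 27.3 CPM and then 25.1, 23.0, 23.1 and 21.9 CPM. Every A101D library thus stood above every MeWo library, and the sets were separate in A101D but overlapped narrowly in MeWo. NNMT was 3.52-fold lower in MeWo (log2 difference -1.82 ± 0.03, SE, adjusted p = 1.79e-38). Between the sets it moved in opposite directions, with log2 differences of 0.20 in A101D (adjusted p = 3.47e-05) and -0.21 in MeWo (adjusted p = 0.00553), and the difference of these differences was -0.42 ± 0.07 (adjusted p = 1.57e-06). The line difference was therefore wider among libraries 5 to 8 (log2 -2.02) than among libraries 1 to 4 (-1.61). The MeWo set difference was not called without the low-count filter (adjusted p = 0.0595).

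HNMT, the cytosolic enzyme that methylates histamine, had the opposite order. Its level was 12.5, 12.1, 10.1 and 11.4 CPM in A101D libraries 1 to 4 and 9.82, 10.4, 9.85 and 10.2 CPM in libraries 5 to 8. The MeWo values were 24.5, 26.4, 25.4 and 23.2 CPM and then 27.7, 30.4, 29.3 and 28.4 CPM. The MeWo sets were separate, with the second set higher, and the A101D sets overlapped. HNMT was 2.49-fold higher in MeWo (log2 difference 1.31 ± 0.05, SE, adjusted p = 1.84e-28) and rose by 0.22 on the log2 scale between the MeWo sets (adjusted p = 0.00275). The A101D set difference of -0.20 (adjusted p = 0.0183) depended on single libraries and on scaling: the adjusted p was 0.0943 without A101D library 1, 0.144 without A101D library 2 and 0.679 with scaling by total counts. The set differences differed between the lines by 0.42 ± 0.09 (adjusted p = 0.000138).

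TPMT, which inactivates thiopurines such as mercaptopurine by S-methylation, fell in A101D libraries 5 to 8. Its level was 99.2, 106, 100 and 99.3 CPM in libraries 1 to 4 and 52.8, 60.3, 58.6 and 67.0 CPM in libraries 5 to 8. The 8 MeWo libraries had 41.2, 43.3, 39.1 and 39.1 CPM and then 41.0, 44.0, 41.5 and 41.2 CPM. The A101D sets were far apart, the MeWo sets overlapped, and even the lower A101D set stayed above all MeWo libraries. TPMT was 1.88-fold lower in MeWo (log2 difference -0.91 ± 0.04, SE, adjusted p = 3.98e-26), and in A101D it was 1.70-fold lower in libraries 5 to 8 (log2 -0.76 ± 0.05, adjusted p = 3.53e-18). In MeWo the set difference was 0.05, with a 95% interval from -0.06 to 0.15 (adjusted p = 0.658), and the set differences differed between the lines by 0.81 ± 0.07 (adjusted p = 6.16e-13). The line difference was accordingly 2.49-fold among libraries 1 to 4 and 1.42-fold among libraries 5 to 8. These levels rest on the scaling used. With upper-quartile factors over all genes with a count the line difference was -0.41 on the log2 scale. Its values by set were not computed. The difference between the set differences stayed at 0.70 to 0.87 over all alternatives. Among libraries 5 to 8 the line difference under those factors would therefore be smaller still. Whether A101D libraries 5 to 8 then stay above MeWo was not checked. The TPMTP1 and TPMTP2 pseudogenes held 42 and 88 counts over all libraries, and TPMT held at least 1230 in each.

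For creatine synthesis, the enzymes of the first and the last step differed between the lines in opposite directions. GAMT, which methylates guanidinoacetate, had 27.7, 24.4, 22.8 and 25.4 CPM in A101D libraries 1 to 4 and 10, 11.6, 10.5 and 12.0 CPM in libraries 5 to 8. In MeWo it had 4.16, 3.82, 3.53 and 3.8 CPM and then 4.28, 3.43, 3.66 and 3.41 CPM. The 3 levels, A101D libraries 1 to 4, A101D libraries 5 to 8 and MeWo, were separate, and the MeWo sets overlapped. GAMT was 4.44-fold lower in MeWo (log2 difference -2.15 ± 0.07, SE, adjusted p = 1.51e-29), the largest line difference of the 9 genes. It fell 2.28-fold between the A101D sets (log2 -1.19 ± 0.07, adjusted p = 6.83e-20). The MeWo set difference was -0.07, with a 95% interval from -0.31 to 0.18 (adjusted p = 0.803), and the set differences differed between the lines by 1.12 ± 0.14 (adjusted p = 3.85e-09).

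GATM, whose product is the substrate of GAMT, had the lowest level of the 9 genes per kilobase of exon in every set. In CPM its level was 2.73, 1.65, 2.14 and 1.95 CPM in A101D libraries 1 to 4 and 1.77, 2.11, 2.09 and 2.10 CPM in libraries 5 to 8. MeWo libraries had 7.75, 8.29, 8.61 and 7.65 CPM and then 8.33, 8.36, 8.11 and 8.47 CPM. The sets overlapped within both lines, and the lines were apart. The lowest value rested on 52 counts (95% Poisson interval 38.8 to 68.2, counting error only), so its precision is the poorest of the group. GATM was 3.95-fold higher in MeWo (log2 difference 1.98 ± 0.08, SE, adjusted p = 4.66e-25). Its set differences were -0.06 in A101D (95% interval -0.36 to 0.24) and 0.05 in MeWo (-0.12 to 0.21), and neither passed the test (adjusted p = 0.746 and 0.781). Per kilobase of exon, the level of GAMT was 33.6 ± 5.95 times that of GATM in A101D libraries 1 to 4 and 15.1 ± 0.819 times in libraries 5 to 8, against 1.32 ± 0.148 and 1.23 ± 0.141 times in the MeWo sets (mean ± SD, n = 4).

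PEMT, the methylation route to phosphatidylcholine, fell between the sets in both lines by this test, with no overlap of the sets in either. No other of the 9 genes did so. Related genes named below, SELENOI, PTDSS2, LPCAT1, GMPS and IMPDH2, did so too. The share over all genes tested was not computed, so this is not particular to PEMT. The level of PEMT was 14.3, 14.7, 14.2 and 16.2 CPM in A101D libraries 1 to 4 and 6.43, 6.34, 6.90 and 7.06 CPM in libraries 5 to 8. In MeWo it was 22.8, 22.9, 23.7 and 23.2 CPM and then 21.5, 18.9, 19.3 and 19.3 CPM. All 4 sets were separate, in the order MeWo libraries 1 to 4, MeWo libraries 5 to 8, A101D libraries 1 to 4 and A101D libraries 5 to 8. PEMT was 2.14-fold higher in MeWo (log2 difference 1.10 ± 0.05, SE, adjusted p = 3.44e-25). It fell 2.22-fold between the A101D sets (log2 -1.15 ± 0.07, adjusted p = 1.04e-17) and 1.18-fold between the MeWo sets (log2 -0.23 ± 0.05, adjusted p = 0.00241). The difference of these set differences was 0.92 ± 0.09 (adjusted p = 2.10e-11), so the line difference was 1.56-fold among libraries 1 to 4 and 2.94-fold among libraries 5 to 8. Of all windows, 74.2% held fewer CpG dinucleotides than the PEMT window printed above.

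The genes of the CDP-choline route did not share 1 direction. CHKA, its first enzyme, had 24.9, 27.5, 23.9 and 24.5 CPM in A101D libraries 1 to 4 and 27.6, 24.2, 25.8 and 24.4 CPM in libraries 5 to 8. In MeWo it had 69.3, 66.9, 68.4 and 66.8 CPM and then 58.8, 61.5, 59.7 and 61.7 CPM. The A101D sets overlapped, and the MeWo sets were separate with the second set lower. CHKA was 2.53-fold higher in MeWo (log2 difference 1.34 ± 0.03, SE, adjusted p = 1.72e-33). In A101D the set difference was 0.01 (95% interval -0.09 to 0.12, adjusted p = 0.825), although scaling by total counts gave 0.17 with an adjusted p of 0.00528 and upper-quartile factors over the tested genes gave 0.15 with 0.0117. In MeWo CHKA fell by 0.17 on the log2 scale (adjusted p = 0.00611), a call that scaling by total counts ended (adjusted p = 0.0698). The difference between these set differences, -0.18 (adjusted p = 0.0255), was not called without A101D library 3, 4 or 5 (adjusted p = 0.0644, 0.0578 and 0.0857). An antisense gene, AP002807.1, covers 16.3% of the exon bases of CHKA and held 1242 counts against 24326 for CHKA over all libraries. How reads over the shared bases were counted, or whether they were left out, is not known.

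PCYT1A, the enzyme that forms CDP-choline, was lower in MeWo. Its level was 157, 167, 167 and 163 CPM in A101D libraries 1 to 4 and 170, 183, 183 and 187 CPM in libraries 5 to 8. In MeWo it was 99.4, 98.3, 98.7 and 92.5 CPM and then 99.5, 102, 97.1 and 95 CPM. The A101D sets were separate by a narrow margin, and the MeWo sets overlapped. PCYT1A was 1.76-fold lower in MeWo (log2 difference -0.81 ± 0.03, SE, adjusted p = 8.19e-29) and rose by 0.14 between the A101D sets (adjusted p = 0.000881). Its MeWo set difference was 0.02, with a 95% interval from -0.07 to 0.10 (adjusted p = 0.870). The set differences differed by -0.13 with an adjusted p of 0.0502, which fell under the threshold in 11 of 25 alternatives and reached 4.78e-05 with scaling by total counts.

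CHPT1, the cholinephosphotransferase of the last step, had the smallest line difference of the 9 genes. Its level was 82.3, 84.6, 81.1 and 86.3 CPM in A101D libraries 1 to 4 and 64.9, 70.8, 70.6 and 70.3 CPM in libraries 5 to 8. In MeWo it was 104, 106, 100.5 and 94.5 CPM and then 98.9, 98.0, 94.4 and 90.2 CPM. The A101D sets were separate and the MeWo sets overlapped. CHPT1 was 1.29-fold higher in MeWo (log2 difference 0.37 ± 0.03, SE, adjusted p = 4.63e-15) and fell by 0.27 on the log2 scale between the A101D sets (adjusted p = 4.28e-07). The MeWo set difference of -0.09 did not pass (adjusted p = 0.178), though it did without MeWo library 4 (adjusted p = 0.0315). The difference between the set differences was 0.19 (adjusted p = 0.00888), which was not called without A101D library 2 (0.14, adjusted p = 0.0754) or with scaling by total counts (0.08, adjusted p = 0.176).

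**Figure D2:**
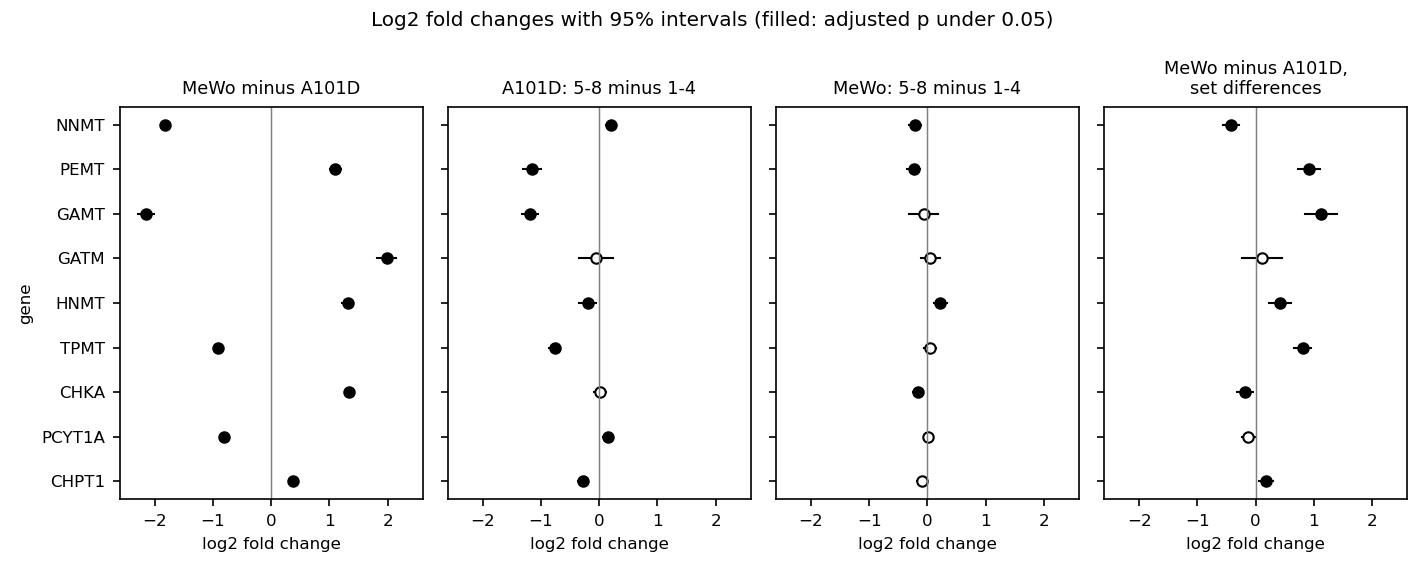
Log2 fold changes of the 9 genes (points) with 95% intervals (lines) for MeWo minus A101D, libraries 5 to 8 minus 1 to 4 in A101D and in MeWo, and the MeWo set difference minus the A101D set difference. Filled points passed an adjusted p of 0.05, and the intervals of PEMT, GAMT and TPMT lie farthest below 0 in the A101D panel.

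In A101D, 7 of the 9 genes differed between the sets, 2 higher and 5 lower in libraries 5 to 8, where 65.3% of all genes tested passed, and with total counts 3 were higher and 4 lower. In MeWo 4 of the 9 differed, 1 higher and 3 lower, where 13.1% of all genes passed. For the difference between the set differences, 7 of the 9 passed, 5 higher and 2 lower, against 48.5% of all genes. With total counts 4 were higher and 3 lower. Without MeWo library 2, which had the highest number of genes with a count, 9, 7, 4 and 7 of the 9 genes passed in the 4 comparisons, as with it. The comparison between lines, the set comparisons and their difference use the same libraries and are not independent of each other. The median set difference of the 9 genes was -0.20 in A101D and -0.07 in MeWo on the log2 scale, beside -0.05 and -0.02 over all genes tested.

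Scaling moved the balance of the calls over all genes. Of the genes called between the A101D sets, 45.2% were higher in libraries 5 to 8, and 59.5% were so with scaling by total counts. In MeWo the share was 35.0%, with 66.3% under total counts and 18.9% under upper-quartile factors. Between the lines, 47.4% were higher in MeWo, and 66.2% were so with upper-quartile factors over all genes with a count, which moved the median difference of all genes from -0.05 to 0.44. Under those factors the 9 line differences kept their directions, with -1.32 for NNMT, -1.65 for GAMT, -0.41 for TPMT, -0.32 for PCYT1A and 0.86 for CHPT1. For the difference between the set differences, 57.0% of calls were higher, and 45.8% were so under total counts.

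Several measures of the whole library moved with the A101D sets. The mitochondrial share of counts was 1.71% to 1.92% in A101D libraries 1 to 4 and 1.93% to 2.33% in libraries 5 to 8, against 1.32% to 1.45% and 1.28% to 1.39% in the MeWo sets. Summed melanocyte lineage markers were 2931 to 3511 CPM and then 2458 to 2690.0 CPM, with 2 of 8 genes higher and 5 lower in libraries 5 to 8. Of 5 fibroblast markers 2 were higher (LUM and DCN) and 2 lower (COL1A2 and PDGFRB). COL1A2 had means of 979 and 587 CPM and made up nearly all of their sum, which was 937 to 1061 CPM and then 573 to 640 CPM, while LUM had means of 1.33 and 2.05 CPM, and COL1A1 and DCN were below 1 CPM in both sets. Summed endothelial markers were 3.81 to 4.86 CPM and then 14.9 to 19.4 CPM, with 3 of 3 higher. Most of that sum was VWF (3.16 to 4.32 CPM and then 13.9 to 17.4 CPM), and PECAM1 was below 1 CPM in both sets. Summed epithelial markers were 0.604 to 0.946 CPM and then 1.81 to 2.46 CPM, and KRT14, the 1 of 3 tested, was higher. The part of these measures in the A101D set differences was not tested.

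Levels per kilobase of exon allow the genes to be set against each other, with the limit that the length is that of all annotated exons and the transcripts in use are not known. In A101D libraries 1 to 4 the highest levels per kilobase were those of TPMT (31.8 ± 0.978 CPM per kb, SD, n = 4), NNMT (28.1 ± 1.12) and PCYT1A (20.5 ± 0.600). In A101D libraries 5 to 8 the order was NNMT (32.4 ± 1.07), PCYT1A (22.6 ± 0.922) and TPMT (18.8 ± 1.85), and none of these neighbours overlapped in either set. In MeWo libraries 1 to 4 CHKA (17.5 ± 0.314) and CHPT1 (16.9 ± 0.850) led with overlapping values, and NNMT (9.22 ± 0.460) came below PEMT, TPMT and PCYT1A. In MeWo libraries 5 to 8 CHPT1 (15.9 ± 0.663) and CHKA (15.6 ± 0.368) led and again overlapped. GATM was last in all 4 sets, with 0.319 ± 0.0683 and 0.304 ± 0.0249 CPM per kb in A101D and 1.22 ± 0.0680 and 1.25 ± 0.0226 in MeWo.

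**Figure D3:**
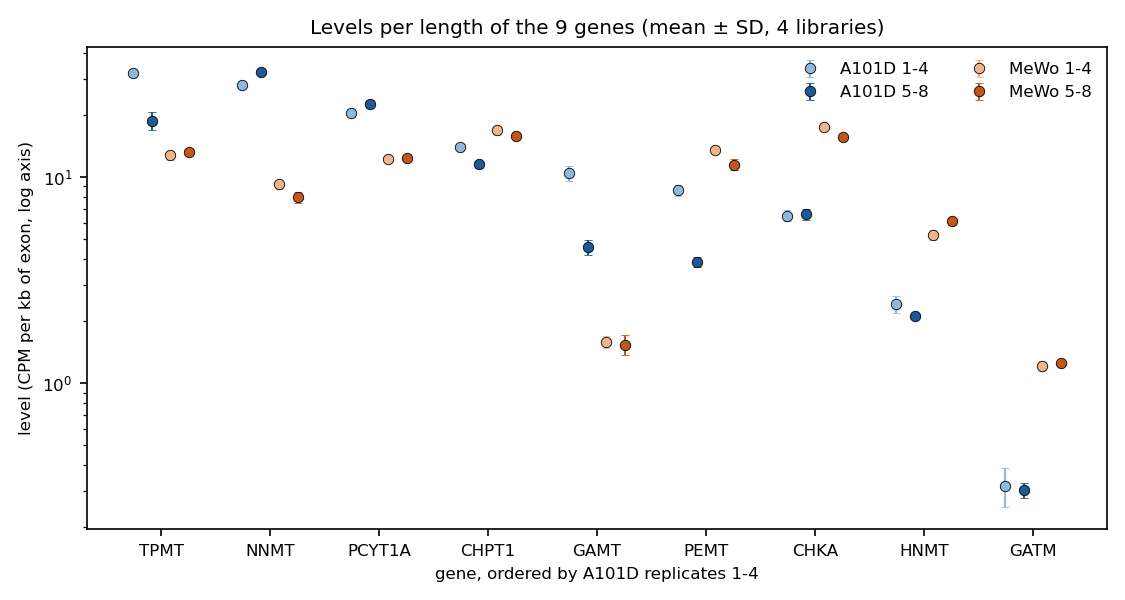
Levels of the 9 genes in CPM per kilobase of exon (vertical log axis) in the 4 sets of libraries (colours), as mean and SD of 4 libraries, ordered by A101D libraries 1 to 4. NNMT, TPMT and PCYT1A lead in A101D, CHKA and CHPT1 lead in MeWo, and GATM is lowest in all 4 sets.

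Within a library, ratios of 2 genes do not depend on the scaling between libraries. The level per kilobase of NNMT was 3.27 ± 0.286 times that of PEMT in A101D libraries 1 to 4 and 8.36 ± 0.701 times in libraries 5 to 8 (SD, n = 4). In MeWo the ratio was 0.686 ± 0.0442 and 0.695 ± 0.0210. NNMT was above PEMT in all A101D libraries on either scale, whereas in MeWo it was below PEMT per kilobase but above it in CPM in every library, so that their order in MeWo turns on the exon lengths (2919 bases for NNMT and 1720.0 for PEMT). The ratio of CHKA to PEMT was 0.756 ± 0.0657 and 1.70 ± 0.153 in the A101D sets and 1.30 ± 0.0336 and 1.36 ± 0.105 in the MeWo sets. Within the CDP-choline route, the ratio of CHKA to PCYT1A was 0.317 ± 0.0203 and 0.292 ± 0.0300 in A101D and 1.44 ± 0.0355 and 1.27 ± 0.0518 in MeWo. The ratio of TPMT to HNMT was 13.2 ± 1.22 and 8.86 ± 0.745 in A101D and 2.45 ± 0.101 and 2.16 ± 0.0383 in MeWo.

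**Figure D4:**
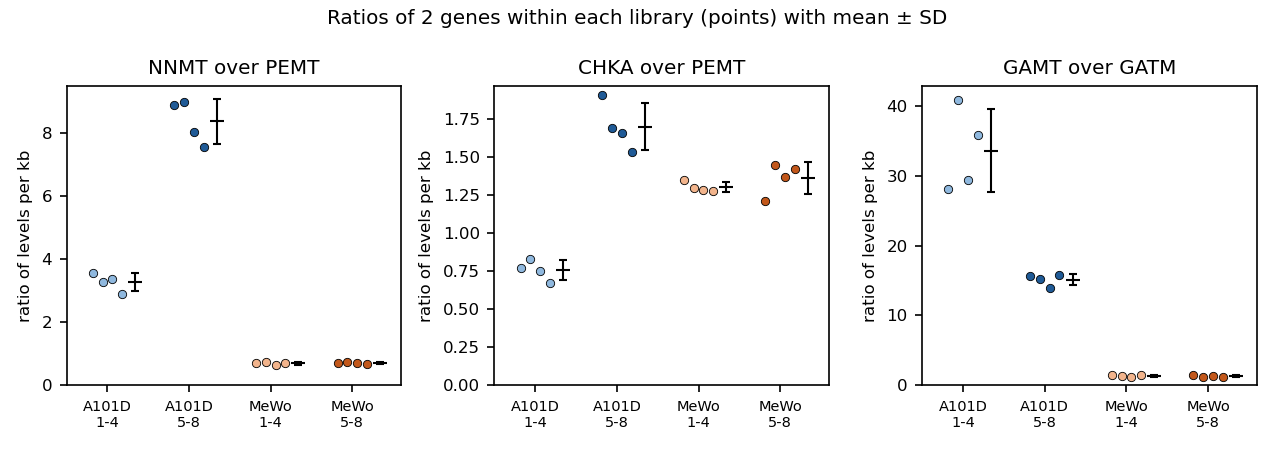
Ratios of levels per kilobase within each library (points, vertical axis from 0) for NNMT over PEMT, CHKA over PEMT and GAMT over GATM, by line and set, with mean and SD of 4 libraries. NNMT over PEMT is highest in A101D libraries 5 to 8 (7.53 to 8.98), and GAMT over GATM is highest in A101D libraries 1 to 4 (28.1 to 40.9).

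Among 10133 genes with a symbol and a mean of at least 10 CPM, those with log2 levels most like NNMT over the 16 libraries were ZNF212, LAMB3 and KIAA1549 (Pearson r = 0.998 for each). LAMB3, a laminin chain, had 45.1 ± 1.73 and 56.9 ± 2.26 CPM in the A101D sets and 11.9 ± 0.432 and 9.997 ± 0.315 CPM in the MeWo sets (SD, n = 4). For PEMT they were SLC66A1 (r = 0.996), PLXND1 and MVD (both 0.995). MVD, an enzyme of the mevalonate pathway, had 26.0 ± 2.31 and 9.73 ± 0.384 CPM in A101D and 43.9 ± 1.14 and 37.6 ± 3.20 CPM in MeWo. For CHKA they were KAT6A (r = 0.997), TEX2 and MED13 (both 0.996), and KAT6A, a histone acetyltransferase, had 56.8 ± 2.15 and 56.7 ± 3.13 CPM in A101D and 113 ± 3.15 and 106 ± 2.66 CPM in MeWo. The 16 points fall into the same lines and sets for every gene, so these correlations describe that grouping and carry no test.

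The 9 genes were set beside lists of other genes of the same pathways, which were drawn up by role. Their counts are to be read against all genes tested, of which 41.1% were called higher and 45.6% lower in MeWo. Between the sets, 29.6% of all genes were called higher and 35.8% lower in A101D, and 4.59% higher and 8.51% lower in MeWo. Of 14 other small-molecule methyltransferases, 9 were tested, and 2 were higher and 7 lower in MeWo (3 and 6 with upper-quartile factors over all genes with a count). The median line difference of the 9 was -1.28, and that of all genes was -0.05. INMT, which methylates indoleamines, held 6520 counts in A101D and 1 count in MeWo (ratio of depth-scaled counts 6496, 95% interval 1165 to 256604, counting error only). It fell in A101D from 32.2 to 16.7 CPM between the sets (log2 -0.94 ± 0.06, SE, adjusted p = 2.29e-18). METTL7B, an alkyl thiol methyltransferase, rose in A101D from 9.33 to 22.5 CPM (log2 1.26 ± 0.08, adjusted p = 1.41e-18), the opposite of TPMT. Between the A101D sets 2 of the 9 rose and 5 fell (3 and 4 with total counts), and between the MeWo sets COQ5, of ubiquinone synthesis, rose by 0.24 (adjusted p = 0.00167) and no other passed.

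Of 11 genes of nicotinamide and NAD metabolism, 10 were tested, and 3 were higher and 7 lower in MeWo (3 and 6 with those upper-quartile factors). Among those lower in MeWo, like NNMT, were QPRT, of NAD synthesis from tryptophan (87.3 CPM in A101D, 6.47 CPM in MeWo, log2 -3.66 ± 0.07, adjusted p = 1.15e-30), and NMRK1, the nicotinamide riboside kinase (6.60 and 1.28 CPM, log2 -2.39 ± 0.12). NMNAT2 held 648 counts in A101D and 16 in MeWo. Between the A101D sets 4 rose and 5 fell (3 with total counts). AOX1, the aldehyde oxidase that oxidizes methylated nicotinamide, rose 7.22-fold, from 0.75 to 5.44 CPM (log2 2.85 ± 0.20, adjusted p = 6.84e-17), and QPRT fell 2.20-fold, from 120.0 to 54.7 CPM. Between the MeWo sets 2 rose and 1 fell, with NMNAT1, an enzyme that completes NAD, at 3.99 and 6.16 CPM (log2 0.63 ± 0.10, adjusted p = 1.39e-05).

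Of 7 histamine genes, 5 were tested, and 1 was higher and 4 lower in MeWo (1 and 3 with those upper-quartile factors). HRH2, a histamine receptor, held 2224 counts in A101D and 5 in MeWo, and AOC1, the diamine oxidase that also degrades histamine, held 328 and 17. Between the A101D sets 3 rose and none fell, among them HRH1, another receptor, from 9.89 to 15.5 CPM (log2 0.65 ± 0.07, adjusted p = 3.53e-11). In MeWo HRH1 was 14.8 and 14.9 CPM. HRH1, the 1 gene called higher in MeWo, thus had the higher mean there only among libraries 1 to 4. Between the MeWo sets MAOB, an oxidase of methylated histamine, was the 1 gene that passed (log2 0.51 ± 0.17, adjusted p = 0.0408), a call that upper-quartile factors ended (adjusted p = 0.0537).

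Of the 7 genes of thiopurine handling and guanine nucleotide synthesis, 6 fell between the A101D sets and 1 rose, beside 35.8% of all genes called lower and 29.6% higher. Their median was -1.03 on the log2 scale, and that of all genes was -0.05. IMPDH2, of guanine nucleotide synthesis, fell 4.90-fold from 243 to 49.7 CPM (log2 -2.29 ± 0.05, SE, adjusted p = 2.12e-28). GMPS, of the next step, fell 3.0-fold from 141 to 46.9 CPM (log2 -1.59 ± 0.05, adjusted p = 5.13e-30). XDH, which oxidizes purines and thiopurines, rose from 0.558 to 10.4 CPM (log2 4.16 ± 0.33, adjusted p = 1.25e-10). TPMT fell in the same libraries as the 6, by less than IMPDH2 and GMPS. In MeWo 3 of the 7 fell and none rose (1 with total counts), and the values for IMPDH2 were 336 and 286 CPM (log2 -0.24 ± 0.05, adjusted p = 0.000566).

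Creatine genes beyond GATM and GAMT included 5 tested of 6, and MeWo had the higher level for 3 and the lower for 2. The mitochondrial creatine kinases CKMT1A and CKMT1B are near-identical copies whose reads may be shared. They held 698 and 947 counts in A101D and 6 and 3 in MeWo. The ratio was 116 for CKMT1A (95% interval 53.0 to 317) and 314 for CKMT1B (107 to 1528), counting error only. CKMT2, the other mitochondrial kinase, had 2.14 CPM in A101D and 5.90 CPM in MeWo (log2 1.46 ± 0.09, adjusted p = 5.89e-19). CKB, the brain-type creatine kinase, fell between the A101D sets as GAMT did, 3.31-fold from 13.2 to 3.98 CPM (log2 -1.73 ± 0.10, adjusted p = 2.70e-19), and between the MeWo sets from 9.70 to 7.77 CPM (log2 -0.34 ± 0.09, adjusted p = 0.0066). CKB, 1 of the 3 genes called higher in MeWo, was thus lower there among libraries 1 to 4 and higher only among libraries 5 to 8. The creatine transporter SLC6A8 was called lower in A101D libraries 5 to 8 (log2 -0.09, adjusted p = 0.0399), but median-of-ratios, total-count and tested-gene upper-quartile scaling ended this call, and total counts turned the value to 0.06 (adjusted p = 0.0652).

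Among 10 other genes of choline uptake and the CDP-choline route, 9 were tested, and 3 were higher and 6 lower in MeWo. With upper-quartile factors over all genes with a count 4 were higher and 4 lower, and the median line difference moved from -0.80 to -0.30. The choline transporter-like genes differed in direction, with SLC44A2 at 52.3 CPM in A101D and 13.9 CPM in MeWo (log2 -1.89 ± 0.04, adjusted p = 5.40e-37) and SLC44A1 at 125 and 75.9 CPM in the A101D sets and 238 and 225 CPM in the MeWo sets. Between the A101D sets 4 fell under each scaling, including SLC44A1 (log2 -0.72 ± 0.05, adjusted p = 2.10e-17) and PCYT1B, the second gene for the CDP-choline step (log2 -0.63 ± 0.10, adjusted p = 3.29e-07). SLC44A5 was among the 2 that rose (4 with total counts), from 2.19 to 5.56 CPM (log2 1.33 ± 0.13, adjusted p = 3.41e-12). In MeWo FLVCR1, a choline transporter, fell by 0.19 (adjusted p = 0.00741) and no other passed.

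The ethanolamine and phosphatidylserine list holds enzymes of the synthesis of phosphatidylethanolamine, the substrate of PEMT, and of phosphatidylserine. It has 7 genes, since EPT1, also listed, is an older symbol of SELENOI. All 7 fell in A101D libraries 5 to 8, and 5 of 7 fell in MeWo (4 with total counts), with medians of -0.56 and -0.24 on the log2 scale beside -0.05 and -0.02 for all genes, of which 35.8% and 8.51% were called lower. The count of 7 in A101D was the same under median-of-ratios, upper-quartile and total-count scaling. SELENOI, the ethanolaminephosphotransferase, fell 1.92-fold in A101D from 142 to 74.1 CPM (log2 -0.94 ± 0.04, SE, adjusted p = 5.95e-23) and 1.22-fold in MeWo from 99.9 to 82.0 CPM (log2 -0.28 ± 0.04, adjusted p = 1.05e-05). PCYT2, which forms CDP-ethanolamine, fell from 59.5 to 39.9 CPM in A101D (log2 -0.58 ± 0.05, adjusted p = 3.17e-14). PTDSS2, a phosphatidylserine synthase, fell by 0.60 in A101D and by 0.27 in MeWo (adjusted p = 1.40e-13 and 9.93e-05). By the test of the difference, the A101D value was the lower for all 7 genes, and for 3 of them with median-of-ratios or total-count scaling. Between the lines 2 of the 7 were higher and 5 lower in MeWo, and 5 were higher and 2 lower with upper-quartile factors over all genes with a count.

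Of 12 genes of phosphatidylcholine breakdown and remodelling, 7 fell and 2 rose between the A101D sets (5 fell and 4 rose with total counts). In MeWo 2 fell and none rose, and 2 fell and 2 rose with total counts. LPCAT1, a lysophosphatidylcholine acyltransferase, fell 3.18-fold in A101D from 69.9 to 22.0 CPM (log2 -1.67 ± 0.06, adjusted p = 2.42e-27) and 1.28-fold in MeWo from 61.5 to 48.1 CPM (log2 -0.36 ± 0.05, adjusted p = 3.35e-06). LPCAT4, of the same enzyme class, fell from 27.8 to 12.3 CPM in A101D (log2 -1.18 ± 0.06, adjusted p = 9.87e-22). SGMS2, a sphingomyelin synthase that consumes phosphatidylcholine, rose from 8.86 to 16.1 CPM in A101D (log2 0.87 ± 0.08, adjusted p = 2.55e-13), and its MeWo values were 22.2 and 21.8 CPM. Of 4 choline oxidation genes, ALDH7A1, which oxidizes betaine aldehyde, was the 1 tested, and it fell in A101D from 44.5 to 22.1 CPM (log2 -1.01 ± 0.05, adjusted p = 5.21e-22).

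**Figure D5:**
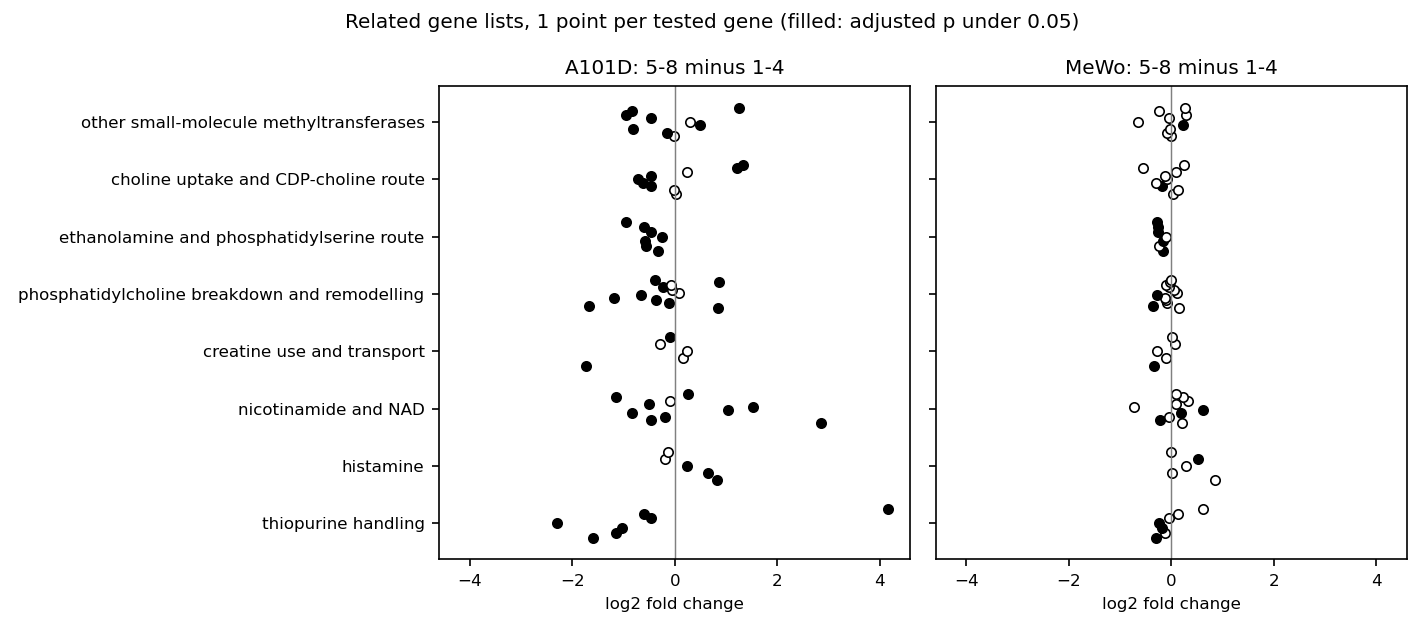
Log2 fold changes between libraries 5 to 8 and 1 to 4 (horizontal axis) of the tested genes of 8 related lists (1 row each, 1 point per gene) in A101D and in MeWo. Filled points passed an adjusted p of 0.05, and all 7 genes of the ethanolamine and phosphatidylserine route lie below 0 in A101D.

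The genes stand at these GRCh38 positions in GENCODE release 29. NNMT is at chr11:114257787-114313285 (plus strand), HNMT at chr2:137964020-138016364 (plus) and TPMT at chr6:18128311-18155074 (minus). GAMT is at chr19:1397026-1401570 (minus) and GATM at chr15:45361124-45402327 (minus). PEMT is at chr17:17505563-17591708 (minus), CHKA at chr11:68052859-68121444 (minus), PCYT1A at chr3:196214222-196287957 (minus) and CHPT1 at chr12:101696947-101744140 (plus). All are protein-coding, and the counts cover their exons. On the same strand, PCYT1A shared 4.02% of its exon bases with AC069257.3, a protein-coding gene with 0 counts. Besides CHKA, exon overlap on the opposite strand was found for PEMT (10% of its exon bases, with AC020558.1 at 5 counts in all), CHPT1 (9.43%, with SYCP3 at 803 counts against 47399), GATM (7.30%, with AC025580.3 at 20 counts) and PCYT1A (4.88%, with SLC51A at 2090 counts against 73626).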

How the data were processed

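Per the labels' protocols, the 16 libraries are of total RNA, prepared with a kit that marks strand. For each line the authors deposited 1 table, which per the file headers holds reads counted over exons from 1 sorted alignment per library. The deposited values are whole-number counts joined to an Ensembl identifier in the same cell, and both parts were separated before use. Because of this joined form the planned count models were not used, although the separated counts would allow them. Trimmomatic 0.39-1, STAR 2.7.1a, featureCounts 2.0.0 and GRCh38 are named in the submitters' processing notes, while the sources used here give neither the annotation release nor whether counting used strand. Columns were matched to libraries by the first letter of the line and the replicate number, which also gives the sets 1 to 4 and 5 to 8. Overlapping or multimapping reads may therefore be assigned differently from what strand-aware counting would give.

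Counts were scaled by TMM factors, trimming 30% of ratios and 5% of means, and CPM are on these scaled sizes. A gene was tested with at least 0.298 CPM (10 counts at the median depth) in 4 libraries and 15 counts summed over libraries, and 21569 genes met this. The fit used voom weights and limma 3.58.1 (R 4.3.3), 4 means (line by set) and robust moderation. Benjamini-Hochberg adjustment ran over all genes tested with a threshold of 0.05. The script was checked on simulated data. Tables and figures used Python 3.11.15, pandas 2.3.3, scipy 1.17.1 and matplotlib 3.10.9.

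The 9 genes, the related lists and the split were chosen with earlier results of these data known. Named besides the 9 genes are, from each list and comparison, some of the up to 3 genes with the largest change past the threshold and a mean of 1 CPM in a group, and the 3 genes most correlated with NNMT, PEMT and CHKA. Alternatives were other scalings, filters, a threshold of 0.01, limma-trend, a replicate block, lines without the sets, and each library left out in turn.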

Additional observations from a re-analysis of the deposited data

Results flagged for a closer look

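Within the sets of 4 libraries, 5 of 36 held a library whose gap to the nearest other exceeded Dixon's 95% critical value, and chance alone flags about 1 in 20 (1.8 of 36). GATM was 1.77 CPM in A101D library 5, with 2.09 to 2.11 CPM in the other libraries of its set, and CHPT1 was 64.9 CPM in the same library, with 70.3 to 70.8 CPM in the others. TPMT was 105.7 CPM in A101D library 2, with 99.2 to 100.0 CPM in the others, and 44.0 CPM in MeWo library 6, with 41.0 to 41.5 CPM in the others. PCYT1A was 92.5 CPM in MeWo library 4, with 98.3 to 99.4 CPM in the others.

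For 7 genes the difference between libraries 5 to 8 and 1 to 4 was not the same in the lines by limma's test of the difference (MeWo minus A101D, log2). It was -0.42 for NNMT, 0.92 for PEMT, 1.12 for GAMT, 0.42 for HNMT, 0.81 for TPMT, -0.18 for CHKA and 0.19 for CHPT1, and 48.5% of all genes tested passed the same test.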

How the results depend on the processing

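Of 891 values of the 9 genes under alternatives, 859 kept their side of the threshold, 18 lost the call, 14 gained it, and no called value changed sign. Uncalled values did so under some alternatives for GATM (-0.13 to 0.10 between the A101D sets, and -0.04 to 0.18 for the difference of set differences), CHKA (-0.02 to 0.17 between the A101D sets) and PCYT1A (-0.03 to 0.07 between the MeWo sets). The 9 line differences, and the A101D set differences of NNMT, PEMT, GAMT, TPMT, PCYT1A and CHPT1, kept their calls throughout. The lost and gained calls are given with each gene above, apart from these: median-of-ratios factors ended the HNMT set difference in A101D (-0.12, adjusted p = 0.150) and the difference of set differences of CHPT1 (0.11, adjusted p = 0.150), upper-quartile factors over the tested genes, added after the data were seen, ended both (adjusted p = 0.470 and 0.160), the lack of a low-count filter ended the HNMT set difference in A101D (adjusted p = 0.0700) and the difference of CHKA (adjusted p = 0.0688), and a threshold of 0.01 ended both of these. At 0.01, 1540 genes in place of 2825 passed between the MeWo sets. With 1 library left out, the genes passing ran from 18161 to 18615 between lines, 13122 to 14237 between A101D sets, 1940 to 3756 between MeWo sets and 9880 to 10528 for the difference of set differences, and of the 9 genes 9, 6 to 7, 4 to 5 and 6 to 8 passed. Same-numbered libraries of the lines were little correlated (r of residuals -0.017 to 0.0524), and 3 of 8 numbers correlated best with their own. No chance level was computed for these values, and shared preparation by number was not tested. With a replicate block 9 of the 9 genes and 18686 genes in all passed between lines. With that block, 7 of the 9 and 10559 genes in all passed for the difference of set differences. The block cannot be fitted for the set differences. The planned quasi-likelihood and negative binomial models were not run, since each deposited cell joined an identifier to its count. The separated values are whole-number counts and would allow such models. Counts of at least 52 per library put the poorest precision at GATM.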
